A study of Jaculus jaculus with 29 samples.

Results

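Cytosolic ribosomal protein genes were followed in the supraoptic nucleus of the lesser Egyptian jerboa (Jaculus jaculus) under water restriction and after water was returned. The genes were taken as every symbol in the authors' deposited table for dehydration that is Rpl or Rps followed by a number, with S6 kinase genes left out, or that is Rplp0, Rplp1, Rplp2 or Rpsa. This gave 24 genes of the 29170 in the count table, 13 of the large and 11 of the small subunit. The subunit was read from the symbol alone, so paralogues such as Rpl7l1 are counted with it. None of the 3 stalk protein genes or Rpsa was among them. A further 53 genes for cytosolic ribosomal proteins, the stalk proteins and Rpsa among them, could be named only by position from RefSeq's genes for the assembly, and serve as a comparison.

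Large neurons of this hypothalamic nucleus make vasopressin and oxytocin. Polyadenylated RNA of tissue punches was sequenced in 29 libraries. The Control group (10 libraries, 5 of each sex) drank freely. Water was restricted for 11 days in the Dehydrated group (10 libraries, 6 female and 4 male). In the Rehydrated group (9 libraries, 4 female and 5 male) it was restricted for 7 days and then given freely for 3. All animals lived alone in a cage, with dry food, at 25 °C and a light phase of 12 hours, and the samples hold no group restricted for 7 days alone. Libraries carry their names in the labels (a letter and a number), and p-values measure the spread between libraries, which the labels number within each group without saying outright that each is another animal.

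Ribosomal proteins bind ribosomal RNA to form the large (60S) and the small (40S) subunit, and a cell needs them in matched amounts. Their mRNAs are short and abundant and begin with a pyrimidine tract through which the mTORC1 pathway and Larp1 control their translation and stability. Secretory neurons such as those of the supraoptic nucleus make large amounts of peptide precursor, and their nucleoli are known to enlarge under osmotic stimulation. Only mRNA was measured here, not ribosomal RNA, ribosomes or translation. In bulk tissue, fewer cells of a type and less RNA per cell cannot be told apart.

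Total counts ran from 10797577 to 18856620 per library. Control M01 had the fewest counts and the fewest detected genes, 19384 against 19876 to 21367 in the others, and results are given with and without it. Rehydrated M04, whose column carries a library number outside the run of the others, is treated in the same way where it bears on a value. Levels are CPM, counts scaled to a common library size from TMM-scaled totals, and comparisons come from edgeR's quasi-likelihood test with sex as covariate, Benjamini-Hochberg adjustment over 17558 genes and a threshold of 0.05. All 24 genes passed the filter on low counts. All 8 magnocellular markers were detected, and Avp, Pdyn, Pcsk1 and Caprin2 rose in Dehydrated (log2 fold changes of 1.81, 1.13, 1.39 and 0.98, adjusted p at most 0.0388 by edgeR). These values are from the fit with all libraries, and no other marker of that list (Oxt, Creb3l1, Rasd1, Scg2) passed the threshold there.

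The genes have 4 to 10 exon blocks each, and none is a single-exon copy. They are short, with a median summed exon length of 860 bases (407 for Rps27l to 2148 for Rpl3) against 2154 for the tested genes. On the mJacJac1 assembly 5 of them lie on chromosome 8 (Rpl10a, Rpl7l1, Rps10, Rps18 and Rps21), 3 each on chromosomes 1, 3 and 14, 2 on chromosome 9 and 1 each on the other 8 chromosomes that hold any. Rps4x is on the X chromosome. Of the 24 genes, 22 matched a RefSeq gene by position and 21 had the same symbol there. The exception is the gene that the authors' table calls Rps27l (ENSJJAG00000021616, chromosome 19, 57564368 to 57565680, plus strand), which RefSeq names Rps27. Another gene, on chromosome 10, is Rps27l in RefSeq and was at 10.8 ± 3.34 CPM over all 29 libraries (SD), against 86.2 ± 21.1 CPM for the gene on chromosome 19. Counts of ribosomal protein genes can also be lost to, or gained from, near-identical processed copies, and the placing of such reads by the aligner was not stated in the sources used.

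The large subunit genes spanned the whole range of levels per length. Rpl7a was the highest of the 24, at 415 ± 56.3 CPM per kilobase of gene length (SD, n = 29). Rpl3, which lies near the peptidyl transferase centre, was the other large subunit gene among the 5 highest, at 201 ± 35.8 CPM per kilobase. At the lower end Rpl31 stood at 29.4 ± 7.75, and Rpl23a, whose protein sits at the exit of the nascent chain tunnel and is a docking site of the signal recognition particle, at 10.5 ± 7.81 CPM per kilobase. Between Rpl7a and Rpl23a lay 5.56 ± 0.77 log2 units per kilobase (SD over 29 libraries).

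Among small subunit genes, Rps21 (357 ± 75.2 CPM per kilobase), Rps10 (292 ± 63.4) and Rps27l (212 ± 51.9) followed Rpl7a. Rps10 lies at the mRNA entry side of the small subunit and is modified when ribosomes collide. The lowest were Rps7, a protein that also binds Mdm2, at 27.8 ± 5.94 and Rps15, a protein of the subunit head, at 14.5 ± 3.78 CPM per kilobase. Since subunits hold 1 copy of most of these proteins, the spread of annotated levels over the list is stated as measured, with the part of near-identical copies in it not tested. The paralogues Rpl22l1, a counterpart of Rpl22, and Rpl7l1, a nucleolar relative of Rpl7, were at 103 ± 15.9 and 32.3 ± 3.95 CPM per kilobase.

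**Figure D1:**
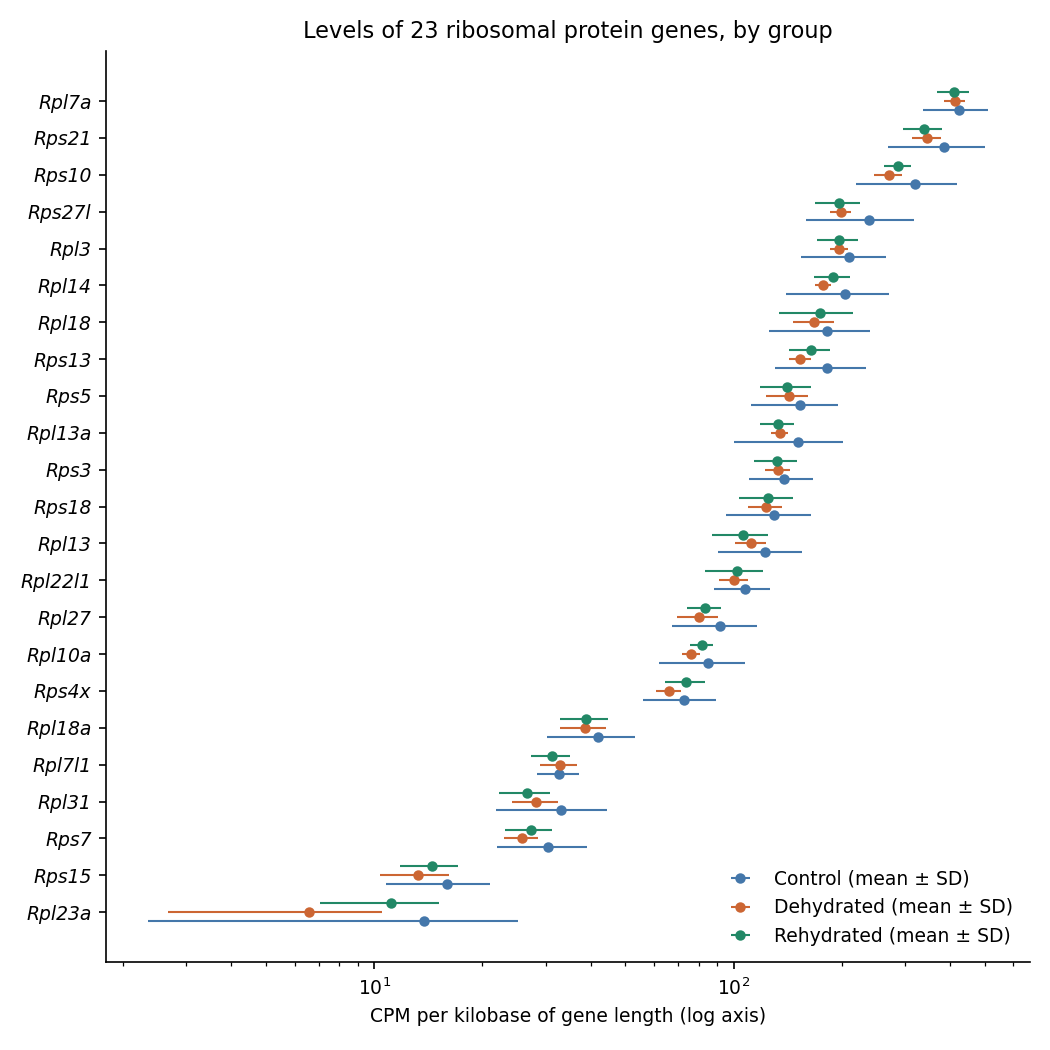
Mean level of 23 of the 24 genes in CPM per kilobase of gene length (log axis), with points for the group means and bars for the SD over 10 Control, 10 Dehydrated and 9 Rehydrated libraries. The genes run from Rpl7a at the top to Rpl23a at the bottom, and the bars of the 3 groups overlap for every gene shown.

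Summed over the 24 genes, the share of a library's counts was 0.251% at the lowest, 0.283% at the median and 0.515% at the highest of the Control libraries. For Dehydrated it was 0.273%, 0.280% and 0.322%, and in Rehydrated 0.227%, 0.289% and 0.329%. The medians differed by less than the range of any group. The highest Control value is that of Control M01, and without it the Control share was 0.286 ± 0.026% (SD, n = 9) against 0.283 ± 0.0141% in Dehydrated (n = 10). The lowest Rehydrated value is that of Rehydrated M04, without which the share was 0.295 ± 0.0251% (n = 8).

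The genes moved together from library to library. Control M01 was the highest of all 29 libraries for 22 of the 24 genes, with a median of 0.93 log2 units above the median of the other Controls. The exceptions were Rpl13, highest in Control F01, and Rpl7l1, which stood 0.28 log2 units below the Control median there. Rehydrated M04 was the lowest library for 12 of the 24 and Control F05 for 6. In Rehydrated M04, 20 genes lay below the median of the other Rehydrated libraries, with a median difference of -0.28. Rpl18 (-0.90) and Rpl22l1 (-0.87) differed most there. None of these counts by library was made over all tested genes, so they have no background share beside them.

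Smaller shifts of the same kind occurred among the other Control libraries. In Control F01, 22 of the 24 genes were above the median of the Controls other than M01, while in Control F06 none was, and in Control F05 only 1 was. Their median deviations were 0.27, -0.20 and -0.18 log2 units. The numbers of genes above the median were likewise not counted over all tested genes. The SD of a gene's log2 CPM was 0.35 at the median of the 24 genes in Control and 0.22 without Control M01. It was 0.13 in Dehydrated and 0.20 in Rehydrated (0.17 without Rehydrated M04). The smaller SD of the Dehydrated libraries was not tested.

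**Figure D2:**
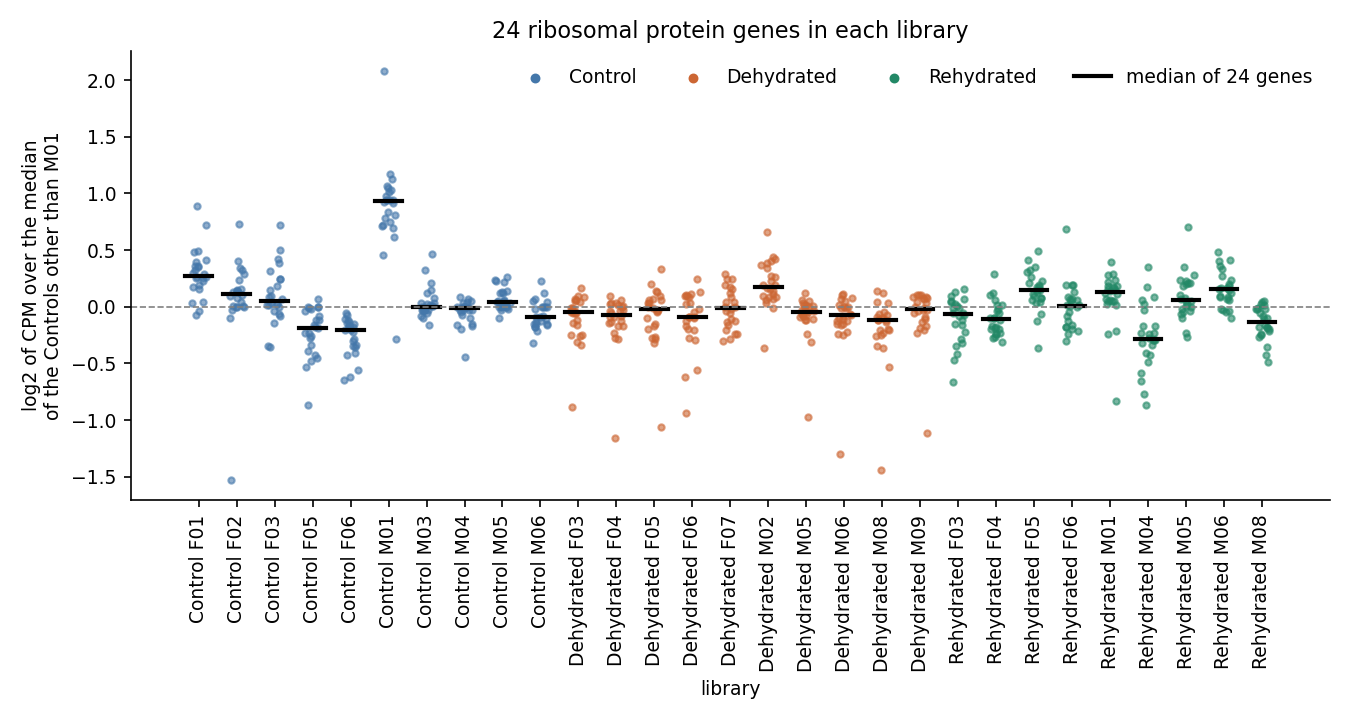
Each point is 1 of the 24 genes in the library named on the horizontal axis, as log2 of its CPM over the gene's median in the 9 Controls other than M01, and the black bar is the median of the 24 genes. Control M01 stands highest, with a median of 0.93, and Rehydrated M04 lowest, with -0.29; the lowest point in most Dehydrated libraries is Rpl23a.

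Water restriction was compared with free water first. By edgeR 0 of the 24 genes passed the threshold in Dehydrated against Control, where 0.125% of all tested genes did (20 higher, 2 lower), and by DESeq2 also 0. The smallest adjusted p by edgeR was 0.515 and by DESeq2 0.206, both for Rpl23a. At an unadjusted p under 0.05, 4 genes were lower, Rpl23a, Rps13 and Rps27l among them, and 0 higher, by either tool, against 3.7% of all tested genes lower and 2.67% higher. Without Control M01 the count was 1 lower, Rpl23a, and 0 higher by either tool, against 2.6% lower and 3.14% higher.

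Although no gene passed, 23 of the 24 had a log2 fold change below 0, against 50.8% of all tested genes, and the median was -0.14 against -0.003 for all tested genes. The median SE of a gene's log2 fold change was 0.11. All 11 small subunit genes were lower (median -0.22), as were 12 of the 13 large subunit genes (median -0.12), and Rpl7l1 stood at 0.005. Without Control M01, 18 of 24 were lower, against 49.1% of all tested genes, and the median was -0.04, with 0 genes past the threshold by edgeR (0.0969% of all tested genes passed). There, 8 of 11 small (median -0.09) and 10 of 13 large subunit genes (median -0.03) were lower. The ranges of Dehydrated and Control libraries overlapped for all 24 genes, a count not made over all tested genes. The authors' deposited table of this comparison gives 18 of the 24 genes a log2 fold change below 0, with a median of -0.04 and a lowest adjusted p of 0.439. Its fold changes equal those of DESeq2 without Control M01 to 2 decimals for each of the 24.

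Rpl23a (ENSJJAG00000024429, chromosome 9, 86586532 to 86589335, minus strand) had the largest difference. Its level was 2.69, 7.87 and 32.6 CPM at the lowest, median and highest Control library, and 2.85, 3.82 and 12.2 CPM in Dehydrated. In Dehydrated 9 of 10 libraries lay below the Control median, and Dehydrated M02 was the exception. The Control range held that of Dehydrated entirely, since Control F02 was the lowest of all libraries. The log2 fold change was -1.07 with an SE of 0.35 (unadjusted p = 0.00434, adjusted p = 0.515 by edgeR with Benjamini-Hochberg adjustment). Without Control M01 it was -0.71 with an SE of 0.27 (adjusted p = 0.747), and without Dehydrated M02 it was -1.31 (adjusted p = 0.169). Over all settings run, its adjusted p lay between 0.169 and 1. Rpl23a rests on the fewest reads of the 24 genes, 41 counts in its lowest library and 343 in its highest.

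Rps27l, the gene of chromosome 19 that RefSeq calls Rps27, encodes a zinc finger protein of the small subunit. It was at 68.5, 90.4 and 181 CPM in Control (lowest, median, highest) and at 73.6, 79.7 and 93.7 CPM in Dehydrated. In 9 of 10 Dehydrated libraries it was below the Control median, with or without Control M01. The log2 fold change was -0.25 (SE 0.12, adjusted p = 0.762 by edgeR), and -0.11 (SE 0.08) once Control M01 was left out.

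Rps13 (chromosome 3, 183708211 to 183711505, minus strand), which contacts the large subunit across the subunit interface, was at 72.6, 83.6 and 159 CPM in Control and at 68.0, 77.6 and 87.7 CPM in Dehydrated. Again 9 of 10 Dehydrated libraries were below the Control median, and the ranges overlapped. Its log2 fold change of -0.23 (SE 0.10, adjusted p = 0.747 by edgeR) became -0.12 (SE 0.07) without Control M01. Rps10 and Rps7 were likewise below the Control median in 9 of 10 Dehydrated libraries, with log2 fold changes of -0.22 and -0.22, and -0.09 and -0.13 without Control M01. In all, 6 of the 24 genes had 9 or more of 10 Dehydrated libraries below the Control median, and 5 did so without Control M01. This count was not made over all tested genes, so it has no background share beside it.

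Rpl7a and Rpl3, the genes highest in CPM without length scaling, differed little. Rpl7a (chromosome 1, 147921443 to 147925412, plus strand) was at 405, 423 and 708 CPM in Control and at 386, 437 and 492 CPM in Dehydrated. Its median was higher in Dehydrated than in Control, while its log2 fold change was -0.03 (SE 0.08), and 0.06 (SE 0.05) without Control M01. Rpl3 (chromosome 6, 156728873 to 156736579, minus strand) was at 379, 411 and 786 CPM in Control and 400.2, 409.6 and 460.2 CPM in Dehydrated, with a log2 fold change of -0.09 (SE 0.10) and 0.03 (SE 0.06) without Control M01. For Rpl7a and Rpl3 the sign of the difference turned on 1 library. Of the remaining low-level genes, Rps15 differed by -0.23 (SE 0.16), and by -0.16 without Control M01.

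**Figure D3:**
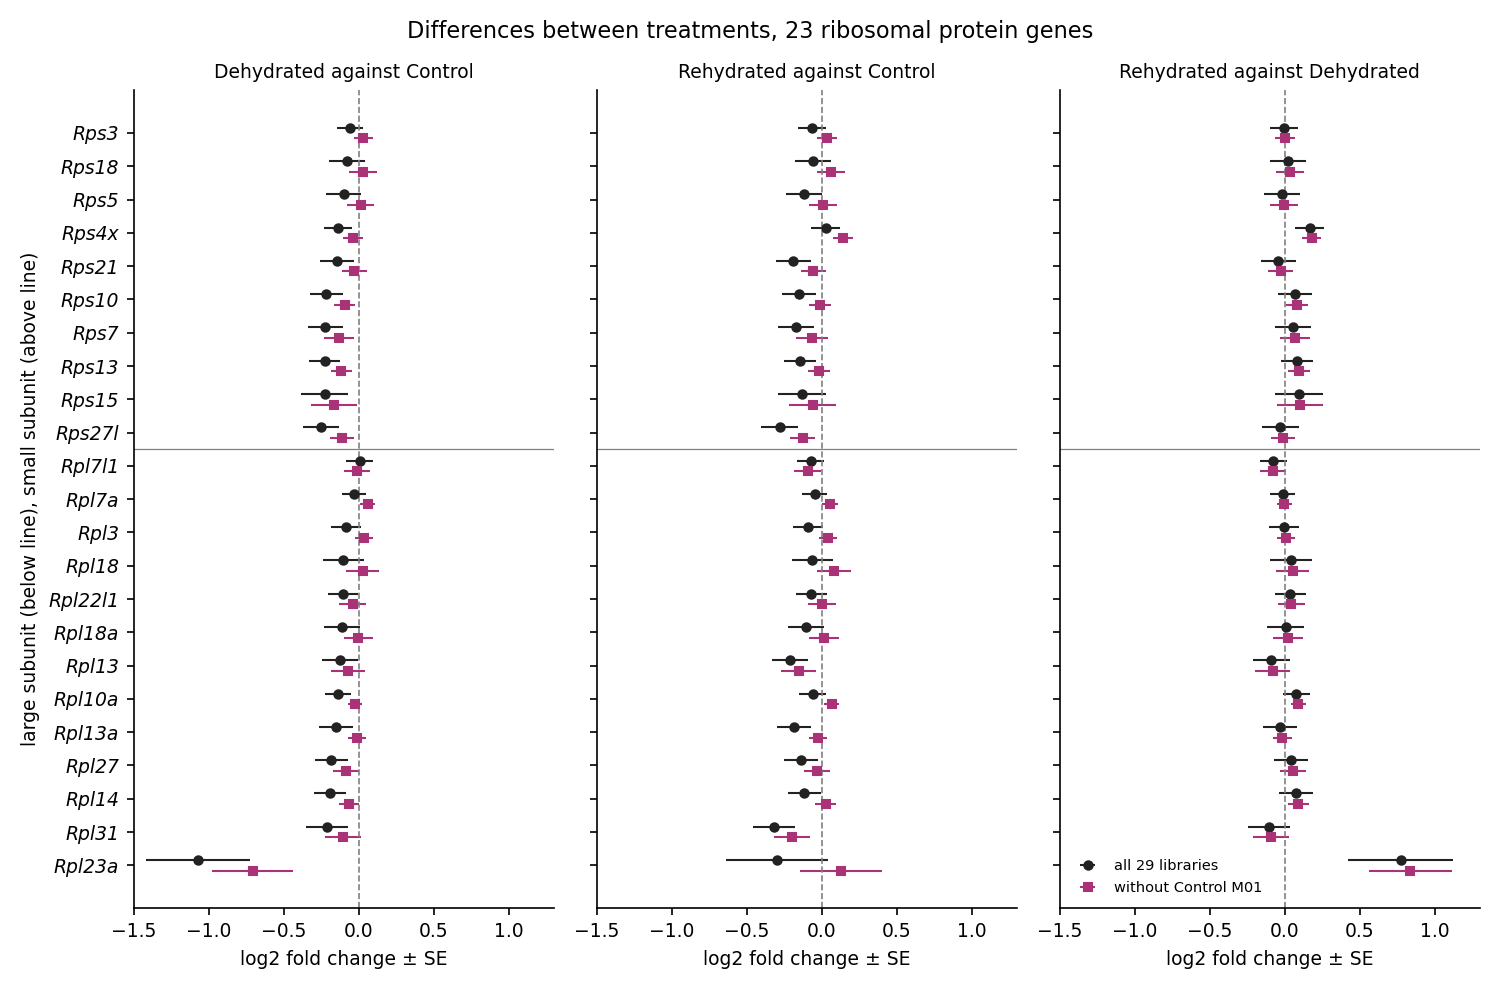
Log2 fold change of 23 of the 24 genes with its SE by edgeR, for Dehydrated against Control, Rehydrated against Control and Rehydrated against Dehydrated, with all 29 libraries (circles) and without Control M01 (squares). Most circles in the first and second panel lie left of 0, with medians over all 24 genes of -0.14 and -0.13. The medians without Control M01 are nearer to 0, at -0.04 and -0.007, though single genes such as Rps4x in the second panel lie further from it.

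After water was returned, the comparison with the same Control libraries again gave 0 of 24 genes past the threshold by edgeR, where 0% of all tested genes passed, and 0 by DESeq2. At an unadjusted p under 0.05, Rps27l and Rpl31 were lower by either tool and 0 genes higher, against 4.17% of all tested genes lower and 3.3% higher. Without Control M01, 0 genes were lower and 1, Rps4x, was higher by either tool, against 3.94% and 4.03% of all tested genes. The number below 0 was 23 of 24, against 49.2% of all tested genes, with a median of -0.13 against 0.003. Without Control M01 it was 12 of 24, against 47.8%, with a median of -0.007. Without Rehydrated M04 as well, an alternative added once the data had been seen, 8 of 24 were lower, against 47.8%, and the median was 0.03. Since both comparisons share the Control libraries, Control M01 enters each of them. In the authors' deposited table for Rehydrated against Control, 12 of the 24 genes are below 0, with a median of -0.007 and a lowest adjusted p of 0.55. Its fold changes for the 24 genes also equal those of DESeq2 without Control M01, with a largest difference of 0.

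Rpl31 (chromosome 4, 113794799 to 113799316, minus strand), a protein near the tunnel exit, was at 29.9, 41.3 and 80.4 CPM in Control and at 32.2, 34.6 and 50.4 CPM in Rehydrated. Its log2 fold change was -0.32 (SE 0.14, adjusted p = 0.636 by edgeR), and -0.20 (SE 0.12) without Control M01. Rps27l, at 63.8, 77.4 and 95.6 CPM in Rehydrated, differed by -0.28 (SE 0.12, adjusted p = 0.624 by edgeR), and by -0.13 without Control M01. For both genes 6 or 7 of the 9 Rehydrated libraries were below the Control median. Rpl13 (-0.21) and Rps21 (-0.19) were also among the lowest, and without Control M01 they stood at -0.15 and -0.06.

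Rps4x (ENSJJAG00000018258, chromosome X, 64763008 to 64768640, minus strand), the X-linked copy of the small subunit protein S4, was the only gene with a positive value in Rehydrated against Control. Its level was 94.4, 106 and 184 CPM in Control, 94.2, 101 and 118 CPM in Dehydrated and 91.2, 117 and 137 CPM in Rehydrated. In 8 of 9 Rehydrated libraries it was above the Control median, and Rehydrated M08 was the lowest of all 29. The log2 fold change against Control was 0.03 (SE 0.10), and 0.14 (SE 0.07, unadjusted p = 0.0406, adjusted p = 0.613 by edgeR) without Control M01.

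Between the Rehydrated and Dehydrated groups, 0 of 24 genes passed by edgeR, where 0.0228% of all tested genes did (4, all lower), and 0 by DESeq2. The number lower in Rehydrated was 10 of 24, against 48.6% of all tested genes, with a median log2 difference of 0.02. Without Rehydrated M04 the number was 5, and without Control M01, which enters the fit only through the spread and the sex term, it was 8, against 48.9%. Without Rehydrated F05 it was 15, and the median turned to -0.02. No background share is given for the fits without Rehydrated M04 or without Rehydrated F05. At an unadjusted p under 0.05 only Rpl23a was higher by either tool and 0 genes lower, against 2.04% of all tested genes higher and 1.84% lower. Without Control M01 in the fit, Rpl23a and Rps4x were higher and 0 genes lower, against 3.29% and 3.22%. Rpl23a, at 4.36, 8.17 and 12.6 CPM in Rehydrated, had a log2 difference of 0.77 (SE 0.35, adjusted p = 0.9999 by edgeR). Without Control M01 in the fit it was 0.84 (SE 0.27, unadjusted p = 0.00481, adjusted p = 0.626). Rps4x differed by 0.17 (SE 0.10) and, without Control M01, by 0.18 (SE 0.06, unadjusted p = 0.00924, adjusted p = 0.667 by edgeR). The other 22 genes lay between -0.11 (Rpl31) and 0.09 (Rps15).

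The large subunit paralogues were detected in every library. Rpl7l1 (chromosome 8, 11268327 to 11275290, plus strand) was at 18.5, 26.99 and 29.05 CPM in Control. The Dehydrated libraries ran from 21.1 through 26.2 to 31.2 CPM and the Rehydrated ones from 19.7 through 25.3 to 28.8 CPM, within or near the Control range. Its log2 differences were 0.005, -0.07 and -0.08 in the order of the comparisons above. Rpl22l1 (chromosome 11, 81682588 to 81685082, minus strand) was at 45.5, 58.6 and 79.4 CPM in Control. It ran from 48.5 through 54.9 to 61.8 CPM among Dehydrated libraries and from 31.8 (Rehydrated M04) through 57.4 to 69.6 CPM among Rehydrated ones. Its differences were -0.11, -0.07 and 0.04, each with an SE of 0.10.

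**Figure D4:**
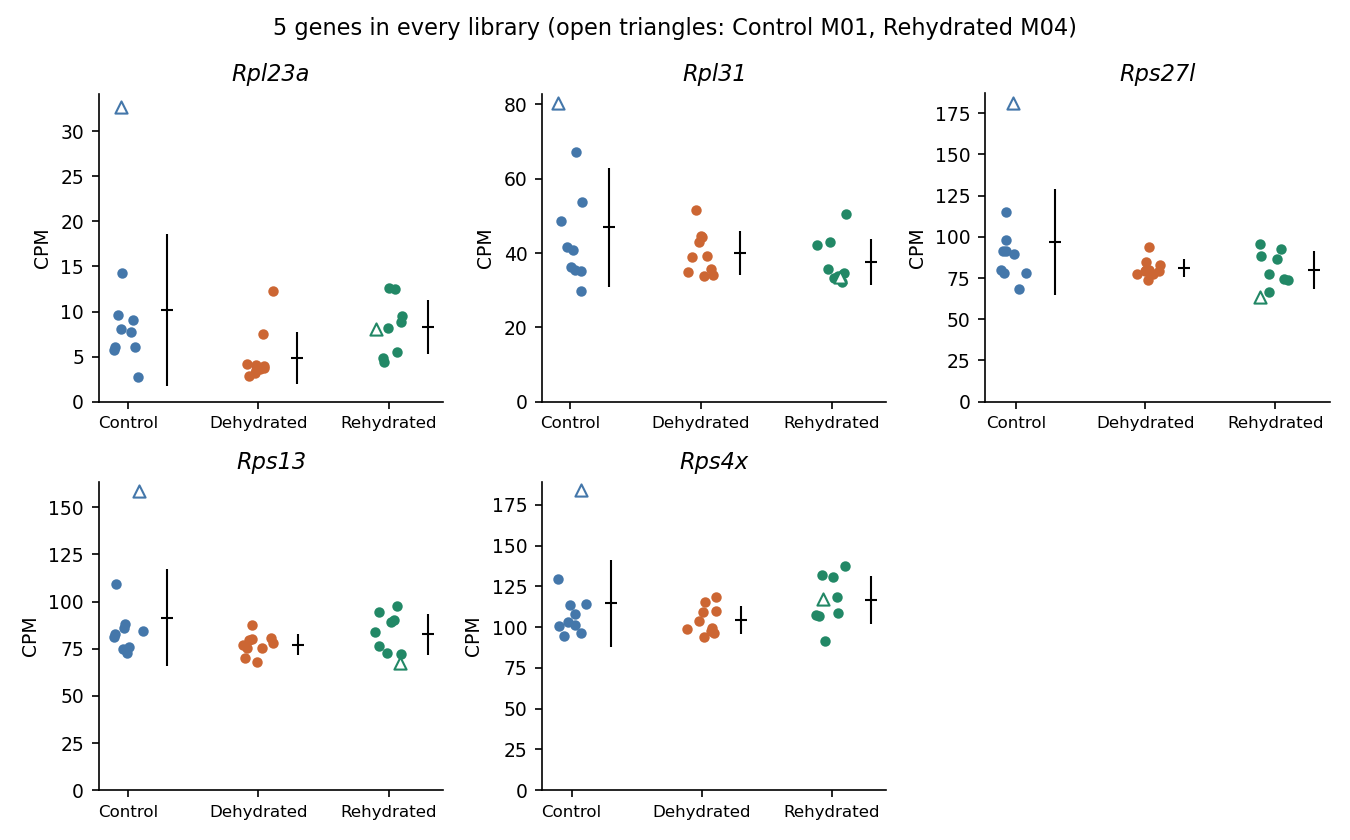
CPM of 5 genes in every library of the 3 groups, with the mean and SD beside the points and open triangles for Control M01 and Rehydrated M04. Control M01 is the highest point in each panel, and the groups overlap for all 5 genes.

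Sex was compared over the 3 groups with the sex given in the labels, which differs from the letter of the name in 3 libraries. By edgeR 0 of 24 genes passed in males against females, where 0.0342% of all tested genes did, and by DESeq2 also 0. At an unadjusted p under 0.05 there were 0 by either tool, against 1.7% of all tested genes lower and 2.17% higher in males. The median log2 difference was 0.06 (5 of 24 lower in males, against 49.9% of all tested genes). Without Control M01, a male, it was -0.02 (13 of 24, against 48.6%). X-linked Rps4x differed by -0.03 (SE 0.08), and by -0.10 (SE 0.05) without Control M01. The sex difference in the response to restriction was tested as male minus female response in a model of the 6 combinations of group and sex. Again 0 of 24 passed by edgeR, where 0% of all genes passed, with Rpl23a alone at an unadjusted p under 0.05 (difference of -1.48 on the log2 scale, SE 0.65, adjusted p = 0.817 by edgeR), against 3.57% of all tested genes lower and 2.49% higher. Without Control M01, 0 genes were at an unadjusted p under 0.05 by edgeR, against 2.46% lower and 2.56% higher, and the smallest was 0.17, for Rpl23a. All 24 genes were below 0 in this contrast, with a median of -0.28, against 48.6% of all tested genes. Without Control M01 the number was 17, the median -0.05 and the background 51%.

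Other parts of the translation apparatus were read in Dehydrated against Control from lists whose members are named in the files or from RefSeq, and 0 genes of any of them passed by edgeR. Of all tested genes 0.125% passed, and 50.8% were below 0 (49.1% without Control M01). The 53 ribosomal protein genes named from RefSeq had a median of -0.16 with 49 lower, and -0.04 with 40 lower without Control M01. Elongation factors and other mRNAs with a pyrimidine tract had a median of -0.12 (16 of 16 lower) and -0.04 without it (14 of 16). Initiation factors stood at -0.07 (16 of 21 lower) and -0.005 (11 of 21).

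Lists for making ribosomes differed less. The median of 29 tested ribosome biogenesis genes was -0.03 (21 lower), and 0.01 without Control M01 (11 lower). For 11 tested genes of RNA polymerase I, which transcribes ribosomal RNA, it was -0.006 (6 lower) and 0.02 (5 lower). The 20 genes listed for the mTORC1 pathway had a median of 0.04 (8 lower), and 0.02 without Control M01 (9 lower). That list mixes activators such as Rheb with inhibitors such as Tsc1, Tsc2 and Deptor. It also holds Rps6ka1, Rps6ka2 and Rps6ka3, kinases that are not part of mTORC1, so its values do not measure the activity of the pathway. The 76 mitochondrial ribosomal protein genes had a median of -0.08 (63 lower), and -0.02 (47 lower), and 18 tested oxidative phosphorylation genes -0.16 (15 lower), and -0.06 (12 lower). In Rehydrated against Control the medians were -0.11 for the 53 ribosomal protein genes (49 lower), -0.08 for the mitochondrial ones (58 lower) and -0.06 for the elongation list (14 of 16 lower). Without Control M01 they were 0.007 (24 lower), 0.007 (36 lower) and 0.02 (4 lower), so the sign of each median turned on 1 library. Of all tested genes 49.2% were below 0 in Rehydrated against Control, and 47.8% without Control M01.

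Control M01 was the highest of the 29 libraries in each of these lists other than RNA polymerase I and the mTORC1 pathway, while the other libraries that stood apart for the 24 genes did so in some lists only. In Control M01 the summed level was 0.89 log2 units above the median of the other Controls for the 24 genes, and 0.94 for the 53 others. It was 0.63 for mitochondrial ribosomal proteins, 0.78 for oxidative phosphorylation, 0.52 for the elongation list, 0.37 for initiation factors, 0.17 for ribosome biogenesis and 0.008 for RNA polymerase I. For the mixed mTORC1 pathway list it was -0.69, the lowest of the 29 libraries, where the others lay between -0.11 and 0.05. Control F01, at 0.21 for the 24 genes, was at 0.27 for the 53, 0.02 for mitochondrial ribosomal proteins and -0.07 for ribosome biogenesis, and Control F06, at -0.21, was at -0.19. Rehydrated M04 was at -0.31 for the 24 genes, -0.18 for the 53, -0.04 for mitochondrial ribosomal proteins, 0.05 for initiation factors and -0.002 for ribosome biogenesis. It was the lowest library for oxidative phosphorylation (-0.28) and the elongation list (-0.13).

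**Figure D5:**
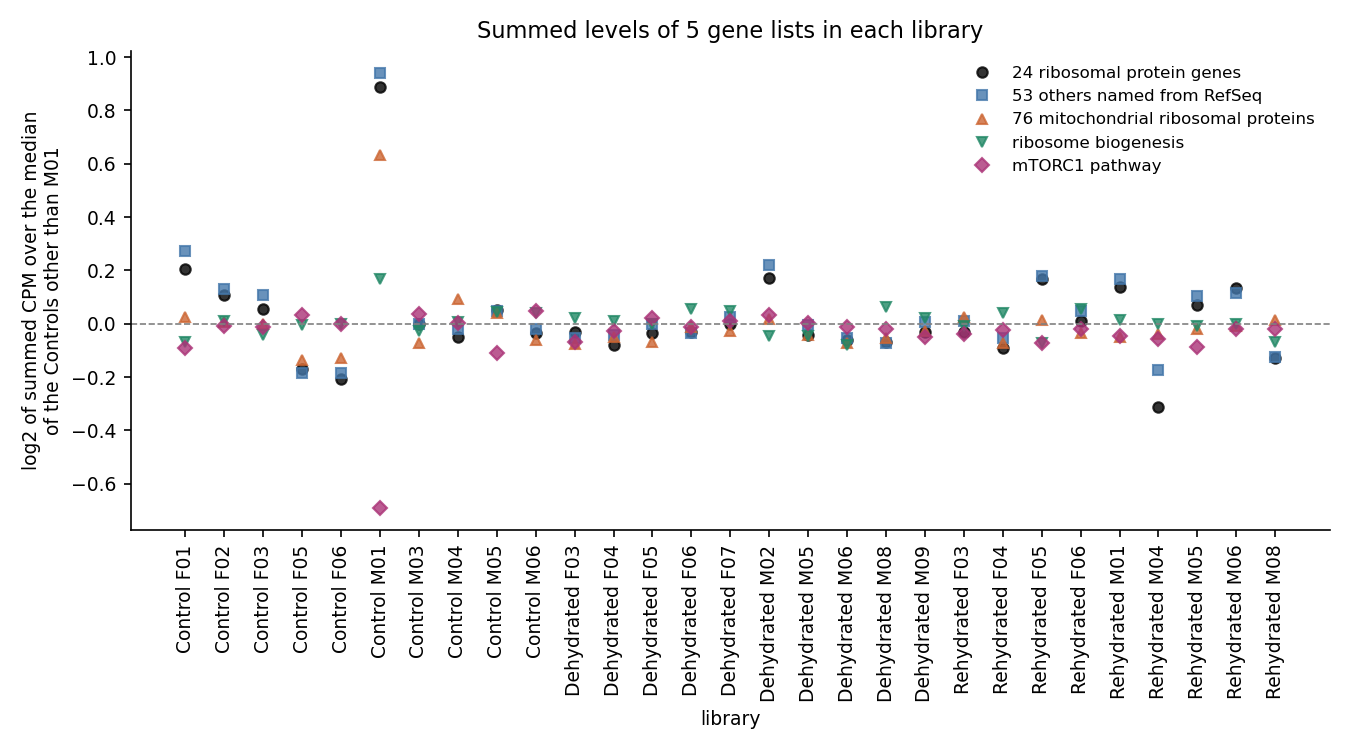
Log2 of the summed CPM of 5 gene lists in each library over their median in the 9 Controls other than M01. Control M01 is the highest library for the 24 genes (0.89) and the 53 others (0.94) and the lowest for the mTORC1 pathway list (-0.69). In most other libraries the 24 and the 53 genes lie close to each other. They lie further apart in Rehydrated M04, at -0.31 and -0.18.

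Other measures also set Control M01 and Rehydrated M04 apart. Summed markers of microglia (7 genes measured) were at 497 CPM in Control M01, the highest of 29 libraries, with a Control median of 151 and ranges of 118 to 186 in Dehydrated and 124 to 224 in Rehydrated. The 3 measured blood genes were at 671 CPM in Control M01 and at 992 CPM in Rehydrated M04, the highest library. Group medians were 203 CPM in Control, 56.6 in Dehydrated and 172 in Rehydrated. Control M01 ranked 3rd of the 29 libraries for blood genes, and another Control library was higher, at 807 CPM. Oligodendrocyte markers (6 measured) were at 2545 to 6494 CPM in Control, 2337 to 6254 in Dehydrated and 1133 to 8104 in Rehydrated, and Control M01, at 3091, was within the range. Their group medians were 3765, 2754 and 3076 CPM. All 6 had a log2 fold change below 0 in Dehydrated against Control (median -0.34, and -0.36 without Control M01), with 0 at an unadjusted p under 0.05. In Rehydrated against Control 5 of 6 were below 0 (median -0.45, 3 at an unadjusted p under 0.05), and 6 of 6 without Control M01 (median -0.48, 4 at an unadjusted p under 0.05), and 0 passed the threshold by edgeR (lowest adjusted p 0.581, and 0.549 without Control M01). In these 2 comparisons 50.8% and 49.2% of all tested genes were below 0 (49.1% and 47.8% without Control M01). By edgeR 3.7% and 4.17% of all tested genes were lower at an unadjusted p under 0.05 (2.6% and 3.94% without Control M01). The neuronal list (8 genes) was at 4917 CPM in Control M01, 22nd of the 29 libraries, and at 5777 CPM in Rehydrated M04. No gene of these lists was at 0 in every library, and the part of cell composition, blood or RNA quality in the ribosomal protein values was not tested.

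Gene length moved with the difference as well. In Dehydrated against Control, the 4390 shortest tested genes (54 to 1306 bases), which hold 20 of the 24, had a median of -0.04 and the 4390 longest (3120 bases and more) 0.05. Without Control M01 these were -0.007 and 0.02. The median of the 24 genes, -0.14, was lower than that of the 4390 shortest genes, and the part of length in it was not tested.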

How the data were processed

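Members and gene lists were chosen with earlier results of these data known. The deposited counts are whole fragments per gene from featureCounts 1.6.2 in paired mode, per the file headers, with Ensembl genes of the mJacJac1 assembly and no strand option, so overlapping or antisense genes cannot be told apart. The submitters' processing notes also name FastQC and DESeq2, and no aligner was stated. The authors' deposited tables hold log2 fold changes and adjusted p-values; their 56 columns of values per library were not used. Genes unnamed there were named from RefSeq where spans overlapped by at least 0.5 both ways. Here edgeR 4.0.16 in R 4.3.3 (filterByExpr, TMM, robust quasi-likelihood, group and sex, 29 libraries, 25 residual degrees of freedom) gave the tests. The filter removed 11612 genes holding 0.126% of counts. The SE is the fold change over the root of F. Counts of all 126 within-group pairs of libraries differed beyond sampling noise (chi-square per degree of freedom 8.73 to 158). Alternatives were DESeq2 1.42.0, other scaling, filters and covariates, each sex alone, a block by library name and each library left out. Tests were checked on simulated data for Dehydrated against Control. Of 100 genes changed by 0.5 log2 units 60 were recovered, and 93 of 100 changed by 1, with 3 false calls. Smaller changes were not simulated. Named genes are those with the 4 smallest p and the 3 largest differences each way in each comparison, the 5 highest and 5 lowest per kilobase, and the paralogues; Rpl18 and Rps18 fall outside this rule. Some genes enter the counts and medians but are not reported here by name. Figures used matplotlib 3.10.9 and Python 3.11.15.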

Additional observations from a re-analysis of the deposited data

Results flagged for a closer look

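A library was marked when its gap to the nearest other library of its group took an unusually large part of the group's range (Dixon's ratio at the 95% level). Of 51 groups of values tested, for the summed share and 16 named genes in 3 treatments, 15 were marked; chance marks about 1 in 20 groups, and values of different genes in 1 library are not independent.

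Control M01 was the highest Control library in 10 of them. Its summed share of counts in the 24 genes was 0.515%. Its levels were 198 CPM for Rpl10a, 32.6 for Rpl23a, 786 for Rpl3, 708 for Rpl7a, 346 for Rps10, 159 for Rps13, 323 for Rps21, 181 for Rps27l and 184 CPM for Rps4x. Rehydrated M04 was the lowest Rehydrated library for Rpl22l1 (31.8 CPM) and Rpl7a (343 CPM). Dehydrated M02, 1 of the libraries whose sex label differs from the letter of its name, was the highest Dehydrated library in the summed share (0.322%), Rpl13 (122 CPM) and Rpl23a (12.2 CPM).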

How the results depend on the processing

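By edgeR no gene of the 24 passed the threshold in any of the 5 comparisons under the settings run, each of the 29 libraries left out in turn among them. DESeq2, which was not run on the sex by treatment difference, passed none in the other 4. In Dehydrated against Control the number of lower genes ran from 18 (without Control M01) to 24 over the left-out libraries and was 16 in females alone, and the median ran from -0.18 (without Control F06) to -0.04 (without Control M01). It was -0.31 in males alone, -0.07 in males without Control M01 and -0.03 in females. In Rehydrated against Control the number of lower genes ran from 12 to 24 over the left-out libraries, with medians from -0.16 (without Control F05) to -0.007. Without Control M01 the number was 12 by edgeR, 12 by DESeq2 and 12 in males alone. Males alone with Control M01 kept gave 24, with a median of -0.22. The number was 12 in females alone. It was 8 with Control M01 and Rehydrated M04 both left out (an alternative added once the data had been seen), where the median was 0.03. In Rehydrated against Dehydrated it ran from 5 (without Rehydrated M04) to 15 over the left-out libraries, with medians from -0.02 (without Rehydrated F05) to 0.05, and was 5 in males alone, 5 in males without Control M01 and 4 with both libraries left out.

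Libraries of the same name in different groups did not visibly deviate together (19 pairs, correlations from -0.12 to 0.11, 2 of them over 0.1). The 261 pairs of other names ran from -0.29 to 0.22, with 16 over 0.1. No pairing by name was seen, though a weak one could go unseen in so few pairs. With the library name as a replicate block, 0 of the 24 genes passed in each treatment comparison, 20 were lower in Dehydrated against Control (median -0.08), 21 in Rehydrated against Control (median -0.05) and 9 in Rehydrated against Dehydrated (median 0.04).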
